A study of Mus musculus with 36 samples.

Results

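The regions described here carried a called peak of histone H3 acetylated at lysine 9 (H3K9ac) in the dorsal hippocampus of untreated mice, both with and without knockdown of Acss2, and no called peak in the 2 matching ethanol groups. The 4 deposited H3K9ac peak lists were joined wherever peaks overlapped or touched on the assembled chromosomes, which gave 51682 regions. Of these, 1120 regions, 2.17% of the total, overlapped a peak of both untreated lists and of neither ethanol list, and they are called untreated-only regions below. They were chosen by the presence or absence of H3K9ac peaks in these lists, so their H3K9ac presence, scores and widths are a description and carry no test.

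The study profiled H3K9ac and histone H3 acetylated at lysine 27 (H3K27ac) by chromatin immunoprecipitation and sequencing (ChIP-seq) in 36 samples, of which 24 were ChIP libraries and 12 were inputs. The first condition was mice injected in the dorsal hippocampus with AAV2/9 U6.shACSS2.CMV.EGFP, a virus that carries a short hairpin RNA against Acss2, and given ethanol into the peritoneum (2 g per kg, as a solution of 20%). The second was mice with the same virus and no ethanol, the third mice with a control vector and ethanol, and the fourth mice with a control vector and no ethanol. All mice were male and aged 8 weeks, and surgery was done at 8 weeks or later, per the labels. Neither viral promoter is specific to a cell type, the sources used here do not give the strain, and no saline injection is named for the untreated groups, so ethanol and the injection cannot be told apart. Each mark and condition had 3 replicates and 1 deposited peak list, so the 8 lists hold no spread between mice, and no difference between conditions could be tested.

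Acss2 makes acetyl-CoA from acetate, the liver turns ethanol into acetate, and in neurons part of the enzyme is in the nucleus, where acetyl-CoA is the substrate of histone acetylation. H3K9ac is known for marking active promoters, and H3K27ac marks active promoters and enhancers. A peak is a place where ChIP reads exceeded input at a set false discovery rate, so a region with no peak in a list fell below that threshold and may still be acetylated. In whole tissue, fewer cells with the mark and less of the mark per cell cannot be told apart.

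The H3K9ac lists held 42120 peaks for knockdown mice with ethanol and 38484 for untreated knockdown mice, and 31042 for control mice with ethanol and 38235 for untreated control mice. The H3K27ac lists held 119317, 101690, 86110 and 89935 peaks in the same order of conditions, and the read depth behind any list is unknown. In the 4 H3K9ac lists, neuronal Slc17a7, Camk2a, Prox1, Neurod1, Wfs1, Nrgn and Gad1, astrocytic Slc1a2 and oligodendrocytic Mbp all had a peak at a gene end. Neurod6, Gfap, Mog, Sox10 and endothelial Cldn5 had one in 3 lists, Flt1 had one in 2 lists, and Gad2, Slc32a1, Aqp4, microglial Cx3cr1 and Csf1r and the other-tissue genes Alb, Ins2, Myh6 and Hbb-bt had one in 0 lists. Among these markers, Gad1 was the only one of interneurons with a peak, and those of microglia had none. In longer gene lists, 15, 16, 13 and 15 of 20 excitatory neuron markers had an H3K9ac end peak, in the same order of conditions. The counts were 5, 6, 3 and 5 of 20 inhibitory neuron markers and 4, 3, 3 and 5 of 20 microglial markers. Genes of other tissues had 6, 6, 6 and 7 of 26, so an end peak alone did not mark neural genes.

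The following 5 promoters show what the untreated-only regions look like where they meet a start site. Txndc15 and Sdf2l1 were at the 2 highest-ranked regions that covered at least 100 bases of such a promoter, ranked by the lower of their score percentiles in the 2 untreated lists, and both lay within 0.2 kb of an ethanol peak. Adgrv1, Col6a2 and Sema3g were the highest-ranked of these whose gene had no H3K9ac peak at either end in either ethanol list. Each line holds the 250 bases before a start site on the strand of the gene, 5′ to 3′, from RefSeq on GRCm38, with the bases inside the untreated-only region in capitals. The positions are chr13:55714400-55714649 on the plus strand for Txndc15, chr16:17132384-17132633 on the minus strand for Sdf2l1, chr13:81633145-81633394 on the minus strand for Adgrv1, chr10:76623405-76623654 on the minus strand for Col6a2 and chr14:31217623-31217872 on the plus strand for Sema3g.
Txndc15: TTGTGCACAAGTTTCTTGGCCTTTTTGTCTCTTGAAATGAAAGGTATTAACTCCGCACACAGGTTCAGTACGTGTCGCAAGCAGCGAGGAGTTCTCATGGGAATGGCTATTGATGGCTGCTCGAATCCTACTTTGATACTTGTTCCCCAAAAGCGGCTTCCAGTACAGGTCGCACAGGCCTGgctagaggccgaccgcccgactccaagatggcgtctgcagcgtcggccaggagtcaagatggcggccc
Sdf2l1: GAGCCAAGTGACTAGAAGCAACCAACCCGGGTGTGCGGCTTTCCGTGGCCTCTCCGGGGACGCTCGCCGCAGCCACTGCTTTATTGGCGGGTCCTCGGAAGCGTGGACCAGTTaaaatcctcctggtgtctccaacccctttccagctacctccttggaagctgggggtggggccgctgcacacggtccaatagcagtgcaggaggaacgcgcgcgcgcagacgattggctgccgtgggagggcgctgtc
Adgrv1: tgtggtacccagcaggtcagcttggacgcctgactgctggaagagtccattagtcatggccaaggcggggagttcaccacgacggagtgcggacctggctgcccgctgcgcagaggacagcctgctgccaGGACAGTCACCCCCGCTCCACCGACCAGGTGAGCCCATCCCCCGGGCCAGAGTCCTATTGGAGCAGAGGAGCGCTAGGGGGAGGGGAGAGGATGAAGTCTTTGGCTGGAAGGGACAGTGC
Col6a2: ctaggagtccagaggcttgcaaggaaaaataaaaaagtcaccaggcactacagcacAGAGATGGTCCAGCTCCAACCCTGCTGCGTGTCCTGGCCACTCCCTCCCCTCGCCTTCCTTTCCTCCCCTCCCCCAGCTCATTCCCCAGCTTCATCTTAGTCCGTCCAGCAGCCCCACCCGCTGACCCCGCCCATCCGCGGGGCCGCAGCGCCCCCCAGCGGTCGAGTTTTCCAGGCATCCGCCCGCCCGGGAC
Sema3g: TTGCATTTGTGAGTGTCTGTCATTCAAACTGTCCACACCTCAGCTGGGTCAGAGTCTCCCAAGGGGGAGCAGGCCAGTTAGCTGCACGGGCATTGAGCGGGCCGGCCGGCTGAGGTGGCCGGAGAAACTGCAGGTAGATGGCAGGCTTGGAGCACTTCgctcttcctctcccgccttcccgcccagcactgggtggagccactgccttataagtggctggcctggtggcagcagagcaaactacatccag
In Txndc15 and Sema3g the region covered 182 and 158 bases far from the start site and stopped short of it, and in Sdf2l1 it covered 113 bases at the same upstream side. In Adgrv1 and Col6a2 the region covered the 120 and 194 bases nearest to the start site and ran on into the gene.

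As a group, promoters met by an untreated-only region were GC-rich, though a little less so than H3K9ac promoters in general. The 107 windows that overlapped one, belonging to 100 genes, had a median GC content of 59.7% and 6 CpG per 100 bases. Windows that overlapped any H3K9ac region had medians of 62.3% and 7.33, and all 21263 windows of protein-coding genes had 56.3% and 4.33, where a window ran from 250 bases before to 50 bases after a start site. Motifs were searched on both strands, and none of them contains another. The GC box CCGCCC, the core bound by SP and KLF factors, was found in 72 of the 107 windows (67.3%), against 68.2% of windows with any H3K9ac region and 46.2% of all windows. The AP-1 motif TGANTCA was found in 5 (4.67%), against 4.08% of windows with any H3K9ac region and 6.99% of all windows. The cyclic AMP response element TGACGTCA was found in 2 (1.87%, against 3.30% and 2.23%) and the E-box CAGATG in 11 (10.3%, against 10.3% and 14.6%) in the same order. Of the printed promoters, Txndc15, Col6a2 and Sema3g held the GC box, while Sdf2l1 and Adgrv1 held none of the 4 motifs.

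Untreated-only regions outnumbered the opposite class. They numbered 1120, against 468 regions (0.906% of all) in both ethanol lists only. Neither was the commonest way to be shared by exactly 2 lists, since 2181 regions were held by the ethanol-treated knockdown and untreated control lists only and 1922 by both knockdown lists only. Both control lists alone held 414 regions, and the untreated knockdown and ethanol-treated control lists alone held 278. The 3 small classes all include the ethanol-treated control list, which is the shortest. When each H3K9ac list was reduced to its 31042 best-scored peaks, the untreated-only class held 811 regions and the ethanol-only class 481. The other classes then held 1180, 1009, 539 and 416 regions in the order above. The 3 classes that include the ethanol-treated control list were thus still the smallest. Of the 1120 untreated-only regions, 397 (35.4%) overlapped one of these 811, and these were 49.0% of the 811. The share of 18999 regions (36.8%) found in all 4 lists was far larger than any 2-list class.

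**Figure D1:**
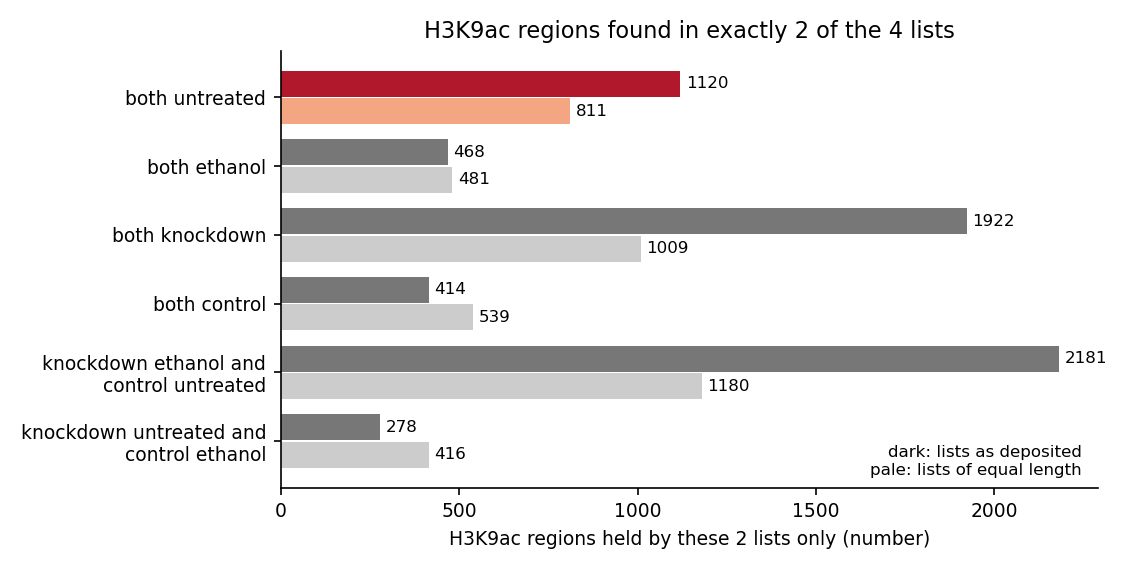
Number of merged H3K9ac regions held by exactly 2 of the 4 lists (x axis) for each pair of lists (y axis), with the lists as deposited (dark) and cut to 31042 peaks each (pale); untreated-only regions are in red. The untreated-only class held 1120 and 811 regions and the ethanol-only class 468 and 481.

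Untreated-only regions were short and scored low in both lists that held them. Their median width was 309 bp, with quartiles of 249.75 and 395 bp and a range of 153 to 964 bp, against a median of 337 bp for all regions. The other classes held by exactly 2 lists had medians of 291.5 to 320 bp. Regions of 1 list had a median of 178 bp and regions of all 4 lists 1057 bp. The median score, which is the authors' value and is read here as −log10 of a q-value, was 5.08 in the untreated knockdown list (range 3.07 to 20.3), where the median of all peaks was 8.38. In the untreated control list it was 5.50 (range 3.04 to 45.7), where the median of all peaks was 9.48. The list threshold is a score of 3.0, and the regions lay closer to it than to the middle of either list. Only 58 (5.18%) scored above the median of the untreated knockdown list and 59 (5.27%) above that of the untreated control list. The peaks of both lists shared a median of 145 bases, 49.1% of the region. Scores depend on depth and were compared neither between lists nor between classes.

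**Figure D2:**
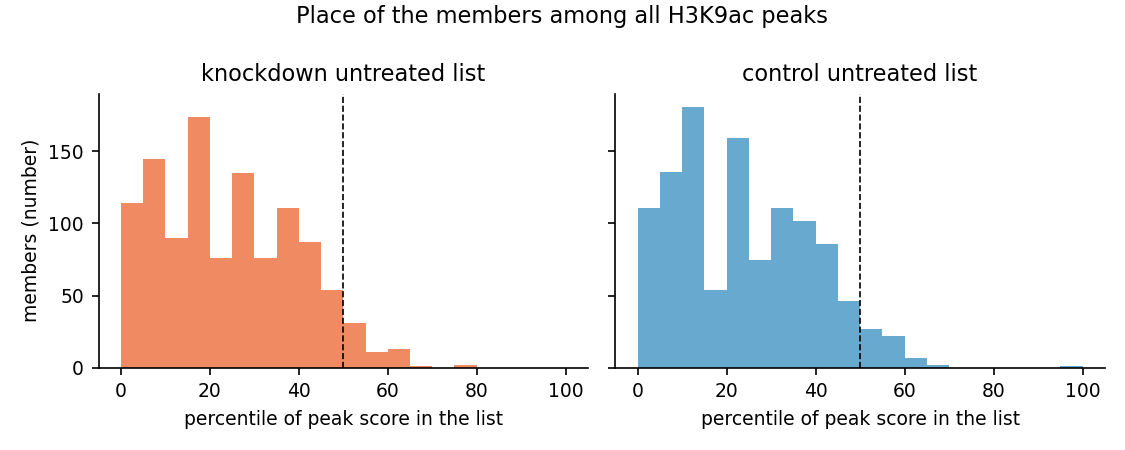
Histograms of untreated-only regions (y axis, number) by the percentile of their score among all peaks of the untreated knockdown list (left) and of the untreated control list (right), with the list median as a dashed line. Most regions lie left of the line, with median percentiles of 23.1 and 23.9, and the uneven bars reflect scores that take repeated values.

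Few untreated-only regions scored above the middle of both untreated lists. Both percentiles were above 50 for 5 regions, and the lower of the 2 was 77.1 for the first region and 57.6 for the second. The highest by the lower of the 2 percentiles was chr11:25099997-25100243, with scores of 19.2 in untreated knockdown mice and 45.7 in untreated control mice. It had no H3K27ac peak in any list, lay 257 kb from the nearest ethanol H3K9ac peak and 927 kb from the nearest gene end, that of Bcl11a, a zinc finger transcription factor gene. It was a narrow peak of 247 bp far from any protein-coding gene, and noncoding genes were not examined. Next came a region inside Susd1, a sushi-domain protein gene, at chr4:59360941-59361206, with scores of 11.4 in the untreated knockdown list and 12.05 in the untreated control list, and an H3K27ac peak in ethanol-treated control mice only. The region at the end of Txndc15, a thioredoxin-domain protein gene, followed with scores of 11.3 and 12.05 at chr13:55714347-55714581, and H3K27ac covered 235, 235, 176 and 235 of its 235 bases in ethanol-treated knockdown, untreated knockdown, ethanol-treated control and untreated control mice.

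The rest of the first 15 included several regions inside gene bodies. One lay inside Acaca at chr11:84168696-84169100, with scores of 8.38 in the untreated knockdown list and 9.48 in the untreated control list. Acaca encodes acetyl-CoA carboxylase, which draws on the same acetyl-CoA pool to make fatty acids, and this region was 9.95 kb from an ethanol peak. H3K27ac covered 338 of its 405 bases in ethanol-treated knockdown mice, 0 in untreated knockdown mice, 285 in ethanol-treated control mice and 237 in untreated control mice. Others lay inside Mgrn1, a ubiquitin ligase gene, Ncl, which encodes nucleolin, Iqsec1, an exchange factor for ARF6, Hnrnpdl, an RNA-binding protein gene, and Apba2, an adaptor that binds the amyloid precursor protein. Further regions of this group lay 12.02 kb from Irf2bpl and 19.5 kb from Ak3, a mitochondrial adenylate kinase gene. Scores over all 15 ran from 8.00 to 19.2 in the untreated knockdown list and from 9.10 to 45.7 in the untreated control list.

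At the other end of the ranking, Gpatch8, Hnrnpul2, Lrrn2 and Maml3 each had a region inside the gene with scores of 6.48, 5.94, 5.58 and 5.58 in untreated knockdown mice, against 3.04 for each of them in untreated control mice. Wfikkn2, a protease-inhibitor-domain gene, had one at its end with 3.07 in untreated knockdown mice and 7.25 in untreated control mice. These 5 regions sat at the threshold in one list. The 5 widest lay in Fbrsl1 (964 bp), at Mpv17l2 and Rab3a (909 bp), at Tiam2 (871 bp), in Vps37b (837 bp) and in Ralgds (819 bp). Both percentiles were under 25 for 351 of the 1120 regions (31.3%), and for 5 regions both were above 50.

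Most untreated-only regions lay beside an ethanol peak. The median distance to the nearest H3K9ac peak of either ethanol list was 0.46 kb, with quartiles of 0.166 and 4.91 kb. An ethanol peak lay within 200 bp of 342 regions (30.5%), within 1 kb of 684 (61.1%) and within 10 kb of 901 (80.4%). The share with a peak of the 2 lacking lists within 1 kb was 61.1% (95% Wilson interval 58.2 to 63.9) for untreated-only regions, against 57.5% (53.0 to 61.9) for regions in both ethanol lists only. It was 54.8% (52.7 to 56.9) for regions of the ethanol-treated knockdown and untreated control lists only. The other classes gave 58.2% (55.9 to 60.4) for both knockdown lists, 62.3% (57.6 to 66.9) for both control lists and 65.8% (60.1 to 71.2) for the untreated knockdown and ethanol-treated control lists. These intervals cover counting error only. The distances use the peaks by which the classes were chosen, and the lacking lists differ in length between classes. The shares are thus a description and carry no test between classes. Only 73 untreated-only regions (6.52%) had no ethanol peak within 50 kb.

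**Figure D3:**
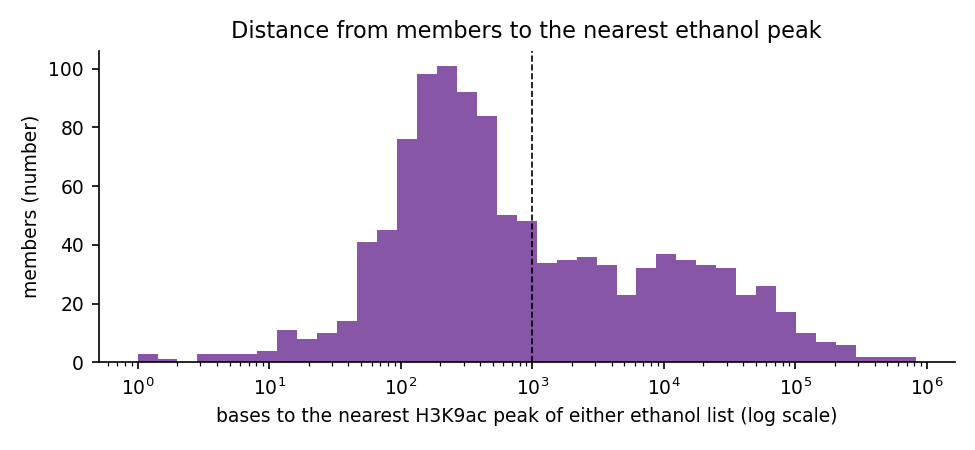
Histogram of untreated-only regions (y axis, number) by the distance in bases to the nearest H3K9ac peak of either ethanol list (x axis, log scale), with 1 kb as a dashed line. The tallest bars lie between 100 and 1000 bases, and 684 of the 1120 regions are at or left of the line.

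At the edge of the rule, 3 regions lay 1 base from an ethanol peak. They were chr1:78661105-78661516 inside Acsl3, an acyl-CoA synthetase gene that overlaps Utp14b, chr6:120491455-120492061 inside Tmem121b, and chr17:26701571-26701850, which was 2.06 kb from Atp6v0e, a proton pump subunit gene. In all, 33 regions had an ethanol peak within 20 bases and 159 within 100 bases. Just outside the rule, chr11:6021358-6022052 and chr7:4656311-4656823 held untreated and ethanol peaks that touched without sharing a base, chr14:64125096-64126093 held peaks that shared 1 base, and 20 regions shared 1 to 20 bases. A shift of a few bases in a peak boundary would move such regions across the rule.

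Regions with and without an ethanol peak within 1 kb differed in where they lay. Of the 684 with one, 28.5% (25.3 to 32.0) were at a gene end and 11.7% were outside genes. Of the 436 without one, 15.1% (12.1 to 18.8) were at a gene end and 33.7% were outside genes. Both sets had similar widths, with medians of 308 and 313 bp. The split rests on the ethanol peaks that the rule used, and 71.7% of H3K9ac regions in all 4 lists were at a gene end. These shares are thus a description without a test, and the same split was not made in other classes.

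Untreated-only regions were mostly away from gene ends. A region was placed at a gene end when it overlapped the 1 kb on either side of the lower or upper coordinate of a protein-coding gene. Of the 1120, 261 (23.3%, 20.9 to 25.9) were at a gene end, against 37.5% of all H3K9ac regions, 21.4% (17.9 to 25.3) of regions in both ethanol lists only and 71.7% of regions in all 4 lists. A further 632 (56.4%) lay inside a gene away from its ends, against 46.3% of all regions, and 227 (20.3%) lay outside genes, against 16.2%. The other classes held by exactly 2 lists were placed alike, with 18.6% to 23.7% at a gene end. In these classes 53.8% to 58.6% lay inside a gene away from its ends and 19.3% to 24.8% outside genes. The intervals of the untreated-only and ethanol-only classes overlapped for gene ends. The median distance to a gene end was 4.95 kb, and 135 regions (12.1%) were over 50 kb away. By chromosome, the untreated-only share of regions ran from 1.63% (1.29 to 2.06) on chromosome 2 to 2.88% (2.33 to 3.56) on chromosome 8, and chromosome Y had 0 of 31.

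A total of 291 protein-coding genes, 1.33% of 21887, had an untreated-only region at an end. Most of these genes had some H3K9ac end peak with ethanol as well, at the same end or the other one: 202 (69.4%) had one in both ethanol lists, 32 had one in 1 ethanol list and 57 (19.6%) had one in neither. Over all 21887 genes, 12859 had an H3K9ac end peak in the ethanol-treated knockdown list and 12070 in the ethanol-treated control list. The highest-ranked regions at gene ends belonged to Txndc15, Wdr66, a gene of ciliary axonemes, Cep55, which acts in the last step of cell division, Med23, a subunit of the Mediator complex, and Sdf2l1, a chaperone partner in the endoplasmic reticulum. After them came Inpp5f, a phosphoinositide phosphatase gene, Ankrd46, Mamld1, Adgrv1, a large adhesion receptor gene, and Ntn3, a netrin gene. Their scores ran from 7.41 to 14.5 in the untreated knockdown list and from 8.16 to 13.1 in the untreated control list. Of these 10, Wdr66 and Adgrv1 were among the genes with no ethanol peak at either end.

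For Wdr66, the region chr5:123252072-123252390 scored 10.4 in untreated knockdown mice and 10.6 in untreated control mice, and the nearest ethanol peak was 4.53 kb away. H3K27ac nevertheless covered 251, 253, 255 and 138 of its 319 bases in ethanol-treated knockdown, untreated knockdown, ethanol-treated control and untreated control mice. For Adgrv1, chr13:81632667-81633264 scored 7.41 and 13.1, with the nearest ethanol peak at 24.0 kb and H3K27ac over 319, 160, 133 and 0 of its 598 bases in the same order. Neither region had clearly less H3K27ac with ethanol: for Wdr66 the covered length was alike in knockdown mice and longer with ethanol in control mice, and for Adgrv1 it was longer with ethanol in both.

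The 57 genes without an ethanol H3K9ac peak at either end were singled out after their values were seen. They included the collagen gene Col6a2 (scores of 6.48 in untreated knockdown and 9.94 in untreated control mice, nearest ethanol peak at 90.9 kb), Sema3g, which encodes a secreted semaphorin (7.41 and 7.07, 8.23 kb), and Htr1f, a serotonin receptor gene (8.38 and 5.50, 231 kb). Others were the cadherin genes Cdh16 and Cdh1, the keratin gene Krt86, Lrp2, which encodes the endocytic receptor megalin, Trp73 of the p53 family, the replication checkpoint gene Clspn, Tk1 of thymidine salvage, the growth factor gene Fgf8, Igfbp2, which binds insulin-like growth factors, and Mcl1, an anti-apoptotic gene. Some of the 57 genes still had an ethanol H3K9ac peak close to the region, outside the gene-end window. The distance was 0.59 kb at Mcl1 and 0.192 to 0.242 kb at Furin, Mmp23, Clip2 and Scgb1a1. Cdh1 was the one gene of the 57 with no H3K27ac peak at an end in any list. At an end of these 57 genes, an H3K27ac peak was present for 54 in knockdown mice with ethanol and for 52 in untreated knockdown mice, and for 43 in control mice with ethanol and for 44 in untreated control mice, and 34 had one in all 4 lists. Over all 21887 protein-coding genes the matching counts were 14030, 13703, 13438 and 13404, so ethanol-treated knockdown mice had the highest count there too. Over the 57 genes, the H3K27ac counts differed by 2 genes between ethanol-treated and untreated knockdown mice and by 1 gene in control mice. For scale, 12294 genes had an H3K9ac end peak in both untreated lists, and 76 of them (0.618%) had none in either ethanol list, whichever regions the peaks belonged to.

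The neural, metabolic and chromatin lists each had 0 to 2 genes with an untreated-only region at an end. Over all protein-coding genes the share was 1.33%, so a list with 1 such gene lay above it and a list with 0 below it. Among 24 immediate early genes the one was Bdnf, which encodes a neurotrophin. Its region chr2:109674140-109674444 scored 6.48 in untreated knockdown and 7.07 in untreated control mice, lay 0.032 kb from an ethanol peak, and H3K27ac covered 305, 227, 260 and 259 of its 305 bases in ethanol-treated knockdown, untreated knockdown, ethanol-treated control and untreated control mice. Among 31 genes of presynaptic release there were 2, Syt7, a calcium sensor gene, and Rab3a, which encodes a synaptic vesicle GTPase. Single genes were found in the lists for GABA signalling (Gabrb1, a GABA-A receptor subunit, 1 of 21), cyclic AMP, calcium and CREB signalling (Adcy8, an adenylyl cyclase, 1 of 40), axon guidance and adhesion (Sema5a, a semaphorin, 1 of 44) and astrocyte markers (Aldh1l1, 1 of 20). Housekeeping genes (Rpl13a, 1 of 20) and genes of other tissues (Scgb1a1 of airway secretory cells, 1 of 26) each had 1 as well. No gene had one at an end in the lists for the metabolism of ethanol and acetate, for enzymes and readers of histone acetylation, for glutamate receptors and postsynaptic scaffolds, glucocorticoid response, or markers of excitatory neurons, inhibitory neurons, oligodendrocytes, microglia and endothelium. With counts of 0 to 2 genes a list, nothing can be read from the order of the lists.

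Regions inside or within 1 kb of genes gave larger counts. Over all protein-coding genes, 878 (4.01%) had at least 1. The GABA list had 4 of 21 (Gabra4, Gabra5, Gabrb1 and Gad1), where the Gabrb1 region also overlaps Gabra4 and so counts for both. The cyclic AMP list had 5 of 40 (Adcy8, Pde1a, Camk2g, Ppp3ca and Prkce) and the oligodendrocyte list 3 of 20 (Mbp, Mobp and Bcas1). The list for the metabolism of ethanol and acetate had 1 of 27 (Acaca), immediate early genes 1 of 24 and microglial markers 0 of 20. Housekeeping genes had 3 of 20 (Rpl13a, Ywhaz and Vcp). Long and heavily acetylated genes offer more room for any region, and this was not adjusted for.

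A handful of genes held several untreated-only regions. Nfix, which encodes a nuclear factor I transcription factor, held 7 of its 84 H3K9ac regions, Mark2, a microtubule-affinity kinase gene, held 5 of 19, and Tmcc2 held 5 of 36. Coro2b, an actin regulator gene, held 4 of 46, the transcription factor gene Zeb2 held 4 of 50, and Gse1 held 4 of 134. Ahdc1 (3 of 34), Bcl11b (3 of 29), Sez6l (3 of 17) and Slain1 (3 of 22) held 3 each. Of the remaining genes, 59 had 2 and 809 had 1.

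Over Nfix (chr8:84704712-84801238), the whole gene was densely marked. The H3K9ac regions in or within 1 kb of it held 70 peaks covering 34.2 kb in ethanol-treated knockdown mice and 70 peaks covering 33.3 kb in untreated knockdown mice. In ethanol-treated control mice there were 42 peaks covering 17.9 kb, against 77 peaks covering 36.1 kb in untreated control mice. Coverage thus differed between ethanol-treated and untreated mice in the control pair and little in the knockdown pair, although the 7 regions were absent from both ethanol lists. The ethanol-treated control list is also the shortest, and its part in this was not tested. Of the 84 regions, 21 were in all 4 lists and 0 were in both ethanol lists only. The 7 untreated-only regions scored 3.47 to 8.38 in the untreated knockdown list and 5.00 to 16.3 in the untreated control list, and 6 of them lay within 0.5 kb of an ethanol peak. H3K27ac covered part or all of each of them in all 4 lists, with 446 of 446 bases in every list at chr8:84749268-84749713 and 341, 388, 219 and 410 of 410 bases at chr8:84753752-84754161, in ethanol-treated knockdown, untreated knockdown, ethanol-treated control and untreated control mice.

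**Figure D4:**
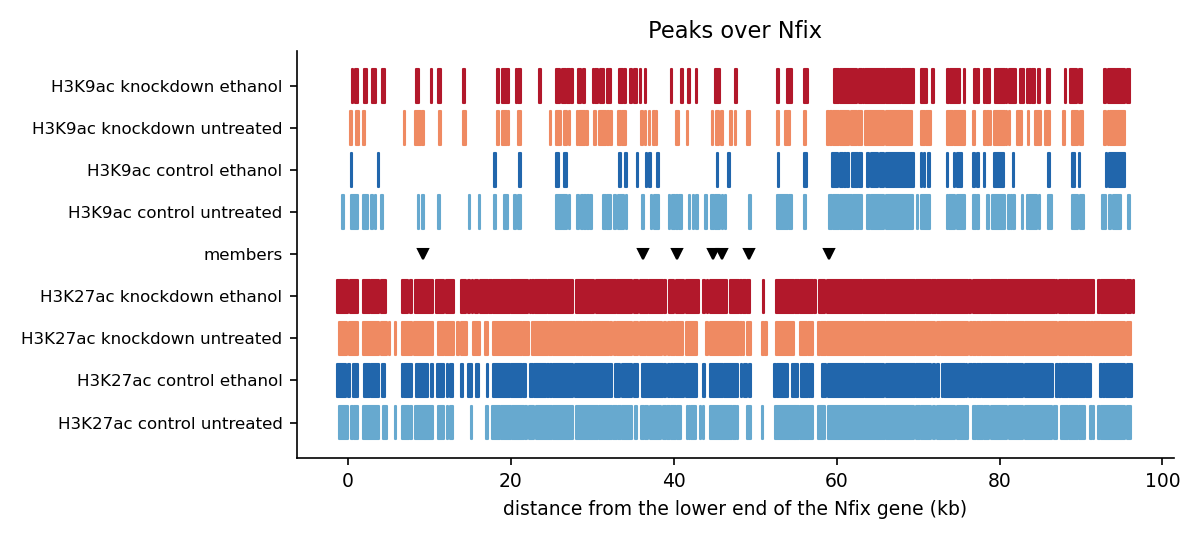
Peaks over Nfix by distance in kb from its lower coordinate (x axis), with 1 row for each list (H3K9ac above, H3K27ac below; colours mark the 4 conditions) and the 7 untreated-only regions as triangles. H3K9ac is sparse in ethanol-treated control mice, with 42 peaks, while H3K27ac is dense in all 4 lists.

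H3K27ac was not used to choose the regions, and it was common over them in all 4 lists. An H3K27ac peak of at least 1 list covered 984 of the 1120 untreated-only regions (87.9%, 85.8 to 89.6), against 87.9% of all H3K9ac regions, and 580 (51.8%) had one in all 4 lists, against 62.3% of all regions. In the other classes held by exactly 2 lists these shares ran from 86.7% to 93.2% and from 47.1% to 58.0%. By condition, 76.8% (74.2 to 79.2) had an H3K27ac peak in ethanol-treated knockdown mice and 73.6% (70.9 to 76.1) in untreated knockdown mice, where all regions had 81.2% and 76.4%. In ethanol-treated control mice 66.9% (64.1 to 69.6) had one and in untreated control mice 68.7% (65.9 to 71.3), where all regions had 72.5% and 73.1%. The difference between ethanol-treated and untreated mice was 3.21 percentage points (0.809 to 5.62) in knockdown mice and -1.79 points (-4.45 to 0.878) in control mice. Over all H3K9ac regions these differences were 4.79 and -0.627 points, both inside the intervals of the untreated-only regions. Those intervals, like the Wilson intervals, cover counting error only and not the spread between mice.

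**Figure D5:**
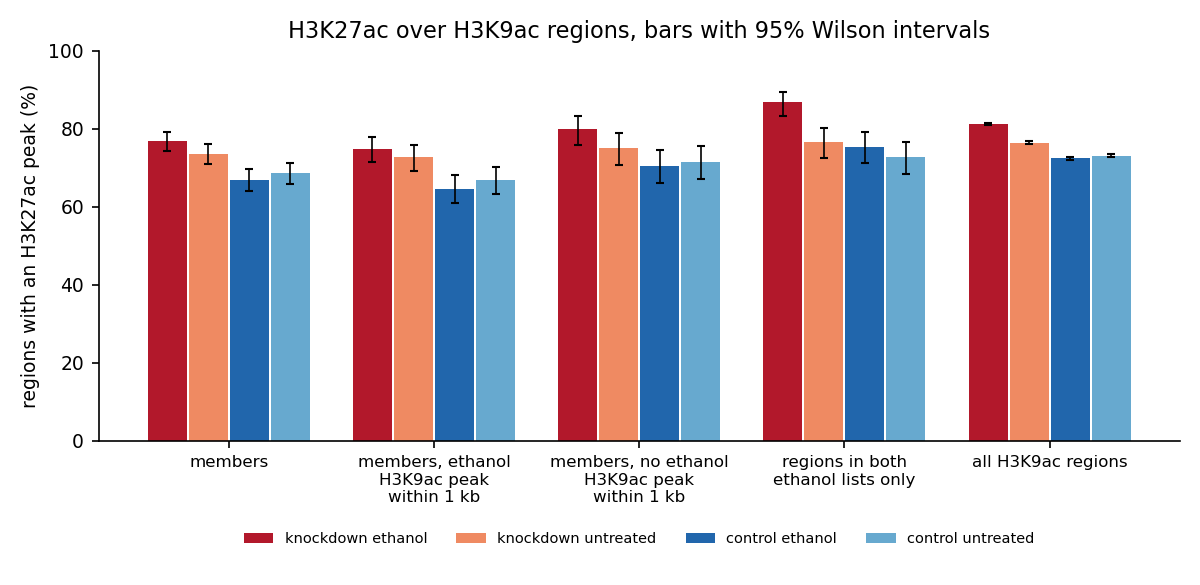
Percent of regions with an H3K27ac peak (y axis) in each of the 4 H3K27ac lists (colours), for untreated-only regions, for those with and without an ethanol H3K9ac peak within 1 kb, for regions in both ethanol H3K9ac lists only and for all H3K9ac regions; bars carry 95% Wilson intervals. Among untreated-only regions the share is 76.8% with ethanol and 73.6% untreated for knockdown, and 66.9% with ethanol and 68.7% untreated for control mice.

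Compared with the opposite class, the H3K27ac difference was smaller. Regions in both ethanol H3K9ac lists only had H3K27ac differences of 10.3 points (6.44 to 14.1) in knockdown mice and 2.78 points (-1.25 to 6.81) in control mice. The other classes held by exactly 2 lists gave 6.28 to 7.91 points in knockdown mice and -3.94 to 4.68 points in control mice. The intervals take regions as units and hold no spread between mice, so differences between classes were not tested. The H3K27ac lists differ in length too. With each cut to its 86110 best-scored peaks, the differences over the untreated-only regions were -0.179 points (-2.79 to 2.43) in knockdown mice and -0.714 points (-3.39 to 1.96) in control mice, over regions in both ethanol lists only they were 9.62 points (5.50 to 13.7) and 3.21 points (-0.823 to 7.23), and over all regions 3.04 and 0.0987 points. The knockdown difference over the untreated-only regions thus changed when the lists were cut to equal length, while its place below that of the opposite class did not. Per the labels each condition has 1 set of 3 inputs, so the lists of both marks rest on the same inputs.

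Region by region, H3K27ac lists differed in both directions, by presence and covered bases in lists of unequal length and with no test. In knockdown mice, 113 untreated-only regions had an H3K27ac peak with ethanol only and 77 without ethanol only, where 8.65% and 3.87% of all regions did so. In control mice the counts were 106 and 126, where 6.86% and 7.48% of all regions did so. H3K27ac covered more bases with ethanol in 426 regions and fewer in 297 in knockdown mice, with means of 217 bases with ethanol and 200 bases without. In control mice it covered more in 338 and fewer in 417, with means of 167 and 177 bases. Over all regions, 44.2% had more and 24.9% fewer in knockdown mice, and 32.7% more and 38.6% fewer in control mice.

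The H3K9ac pattern was repeated in H3K27ac by 11 untreated-only regions (0.982%), with a peak in both untreated lists and neither ethanol list. Of all regions, 0.652% had that H3K27ac pattern. The first 10 by rank lay in or near Fstl1, which encodes a secreted glycoprotein, Snrpa, a spliceosomal protein gene, Abhd2, Vcpip1, a deubiquitinase gene, Csrnp3, Pou2f1, which encodes the transcription factor OCT1, Nr3c1, the glucocorticoid receptor gene, Mcm6, of the replicative helicase, Ppp1r9b, which encodes the spine protein spinophilin, and Igsf3. At Ppp1r9b the region chr11:94997004-94997313 had H3K27ac over 0 bases in both ethanol groups, against 310 bases in untreated knockdown mice and 280 bases in untreated control mice, and it lay 0.014 kb from an ethanol H3K9ac peak. At Nr3c1 the region chr18:39487305-39487495 scored 4.70 in the untreated knockdown list and 9.10 in the untreated control list, with H3K27ac over 0 bases in both ethanol groups, against 172 bases in untreated knockdown mice and 131 bases in untreated control mice. Only the Fstl1 region of these 10 was over 1 kb from an ethanol H3K9ac peak, at 6.52 kb.

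The opposite H3K27ac pattern was about as frequent. An H3K27ac peak in both ethanol lists and neither untreated list was found over 15 untreated-only regions (1.34%), where 1.49% of all regions had it. The first 10 by rank lay at or in Acsl3, Nck2, an adaptor gene, Nkiras2, an inhibitor of NF-kappa-B signalling, Ube2s, a ubiquitin-conjugating enzyme gene, Ripor1, Daam1, an actin-nucleating formin gene, Plekhg5, Kmt2a, a histone H3 lysine methyltransferase gene, Lpin3, a phosphatidate phosphatase gene, and E130309D02Rik, whose end is shared with Zdhhc4. At Acsl3, H3K27ac covered 375 of 412 bases in ethanol-treated knockdown and 319 in ethanol-treated control mice, and 0 bases in both untreated groups, and this region is one of those 1 base from an ethanol H3K9ac peak. At Kmt2a (chr9:44878143-44878477) it covered 139 and 130 bases in the 2 ethanol groups and 0 in both untreated groups. By presence in the lists, the 2 marks had the same pattern in 11 regions (0.982%, against 0.652% of all regions). They had opposite patterns in 15 (1.34%, against 1.49% of all regions), and neither difference was tested.

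Where an H3K27ac peak was present, it ranked above the middle of its list. Its median score percentile over the untreated-only regions was 72.1 in the ethanol-treated knockdown list, 68.1 in the untreated knockdown list, 61.9 in the ethanol-treated control list and 64.9 in the untreated control list. Over all H3K9ac regions the medians were 84.7, 82.2, 78.9 and 79.8 in the same order. In the other classes held by exactly 2 lists the medians were 70.4 to 76.2, 68.1 to 70.8, 61.9 to 66.5 and 60.5 to 66.9. A further 136 untreated-only regions (12.1%) had no H3K27ac peak in any list, the same share as over all regions (12.1%), and the highest-ranked region of all was one of them. The hairpins of 2 annotated miRNAs, Mir1897 and Mir7046, overlapped an untreated-only region.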

How the data were processed

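Peak lists for H3K9ac and H3K27ac, 1 for each mark and condition, were used as the authors deposited them. All 3 replicates of a group point to 1 list in their labels, and the sources used here do not say how they were pooled. Peaks were called on ChIP against input and kept at an FDR of 0.001, per the labels. Tools named without roles, per the submitters' processing notes, are MACS2, STAR 2.5.2a, bcl2fastq and bedtools, with the build GRCm38 (mm10). The deposited lists have no header and 6 columns, and the score is read as −log10 of a q-value, because it never falls below 3.0. The score grows with depth, which is unknown, and served only for ranking and filtering inside a list. There were 0 unused columns of values for samples.

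H3K9ac peaks were merged where they overlapped or touched on the 19 autosomes, X and Y, and regions were classed by the lists that hold them (Python 3.11.15, numpy 2.4.6, pandas 2.3.3, scipy 1.17.1, matplotlib 3.10.9). An overlap is 1 base or more. Merging and classing were tested on simulated peaks. Gene ends came from a RefSeq gene table of the same build with 21887 protein-coding genes and no strand or exons, and so gene ends stand for both starts and ends. Start sites were known for 17492 genes from a RefSeq promoter table. No genome was used here, so the planned sequence features at region centres were replaced by those of promoter windows. Shares carry 95% Wilson intervals, and differences between 2 lists carry normal intervals over regions.

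Regions were ranked by the lower of their score percentiles in the untreated lists, with ties broken by the higher percentile and then by position. Named are the first 15 regions, the first 10 at a gene end, the first 10 of each H3K27ac pattern held by both untreated or both ethanol lists alone, the 5 widest, the 5 lowest, genes with 3 or more regions, and regions at an end of a gene of the 18 gene lists. The regions and lists were chosen with earlier results of these data known. The alternatives were joined peaks, equal list lengths, a score minimum, a 1 kb ethanol-free distance, all sequences, a wider gene-end window, stricter H3K27ac overlap or score, and, added after seeing the data, start sites in place of gene ends. Some results for genes of these lists are not reported here.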

Additional observations from a re-analysis of the deposited data

Results flagged for a closer look

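Over the untreated-only regions, the H3K27ac share with ethanol minus that without was 3.21 percentage points (0.809 to 5.62) in knockdown mice and -1.79 points (-4.45 to 0.878) in control mice. The values have opposite signs, and the interval in control mice includes 0. The difference between knockdown and control mice was not tested, since each group has 1 list. Over all H3K9ac regions the signs were the same, at 4.79 and -0.627 points, and with H3K27ac lists of equal length both values over the untreated-only regions were negative.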

How the results depend on the processing

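The number of untreated-only regions was 856 with peaks up to 200 bp apart joined, 811 with H3K9ac lists of equal length and 1120 with all sequences of the files, but 360 when a score of 5 or more was required and 436 when no ethanol peak was allowed within 1 kb. Under the last 2 settings the ethanol-only class held 135 and 199 regions, so untreated-only regions outnumbered it in all 5 settings. The share at a gene end was 18.5% with joined peaks, 29.8% at equal length, 29.2% with the score minimum, 15.1% with the 1 kb distance, 36.7% with 2.0 kb windows and 17.5% with start sites. Genes with a region at an end numbered 175, 115, 74 and 483 with joined peaks, the score minimum, the 1 kb distance and the wider window, and 263 and 195 at equal length and with start sites. The share with H3K27ac in any list was 90.2% with joined peaks, 94.7% at equal H3K9ac length, 93.1% with the score minimum, 91.1% with the 1 kb distance, 80.2% when H3K27ac had to cover at least 50% of a region, 82.3% with an H3K27ac score of 5 or more and 85.6% at equal H3K27ac length. The H3K27ac difference in knockdown mice changed sign at equal H3K27ac length, to -0.179 points, with an interval of -2.79 to 2.43 that includes 0. This alternative shortens the ethanol-treated knockdown list the most. The difference in knockdown mice was 2.78 to 4.91 points in the other 6 alternatives, and in control mice it was -4.19 to -0.714 points in all 7. The causes of these moves were not tested.

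No paired analysis was possible because each mark and condition has 1 list over its replicates, and leaving out a replicate was impossible for the same reason. The depth behind each list is unknown, and absence from a list means only a score under the threshold.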
